A study of Homo sapiens with 9 samples.

Results

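The peak lists of 2 DNA-binding proteins, ZEB1 and CTCF, were compared in unmodified MiaPaCa2 cells, an established line of human pancreatic ductal adenocarcinoma cells. Both lists come from chromatin immunoprecipitation with sequencing (ChIP-seq), in which DNA crosslinked to a protein is pulled down with an antibody and sequenced, and places with more reads than the background are called as peaks. All peaks of both lists were taken, 4804 for ZEB1 and 31754 for CTCF, which together are 36558 of the 47426 peaks in the 5 lists of the series. The cells received no treatment and no edit, each factor was pulled down with an antibody of its own (a Millipore rabbit antiserum for CTCF), and there was 1 sample per factor, so no difference here can be set against a spread between cultures. The other 3 lists are ZEB1 in unmodified RKO colon carcinoma cells, and ZEB1 in a WT clone and a delta-Repeat clone of MiaPaCa2. Both clones were isolated by dilution after electroporation with Cas9-nickase plasmids, and each is 1 clone. For the delta-Repeat clone the plasmids also carried pairs of guide RNAs aimed at repeats that lie upstream of the MIR200A/B locus. The 3 lists were used only to see whether a pattern recurred in libraries that were not used to find it, and each is 1 sample. CTCF was profiled in unmodified MiaPaCa2 alone among the samples analysed here.

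CTCF is a protein with many zinc fingers that binds a long DNA motif at insulators and at the anchors of chromatin loops, where it stops the cohesin ring. Much of its binding is shared between cell types. ZEB1 carries a zinc-finger cluster at each end, binds short E-box motifs, and represses epithelial genes by recruiting corepressors such as CtBP. It is best known as a driver of the epithelial-to-mesenchymal transition, in which carcinoma cells lose their junctions and become motile.

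The summit of a peak is the base with the highest signal, and all distances below run from summit to summit. Most ZEB1 summits had a CTCF summit in their neighbourhood, while most CTCF summits had no ZEB1 summit near. The median distance from a ZEB1 summit to the nearest CTCF summit was 6.61 kb (95% interval 5.96 to 7.25, n = 4804), with quartiles at 0.74 and 24.9 kb. From a CTCF summit to the nearest ZEB1 summit it was 147 kb (144 to 151, n = 31753, without 1 CTCF peak on chromosome Y). Intervals are exact and cover counting error only, since neighbouring peaks are not independent and read depth is unknown. The CTCF list is 6.61 times as long as the ZEB1 list on the 23 chromosomes used, and this difference in length alone makes the 2 directions unequal. With the CTCF list shortened to its 4804 peaks of highest −log10 q, the median from ZEB1 to CTCF was 77.4 kb. The shares with the other factor within 1 kb were then 7.33% of ZEB1 and 6.87% of CTCF summits. Lists of equal length bring these 2 shares close by construction, and the median from CTCF to ZEB1 is not given for the shortened list.

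Divided by distance, 158 ZEB1 summits (3.29%, 2.80 to 3.83) lay less than 50 bp from a CTCF summit and 177 (3.68%, 3.17 to 4.26) lay from 50 to 100 bp. Another 356 (7.41%) lay from 100 to 250 bp, 320 (6.66%) from 250 to 500 bp and 346 (7.20%) from 500 to 1000 bp. The sum up to 1 kb was 1357 of 4804 (28.2%, 27.0 to 29.5). A further 1386 lay between 1 and 10 kb, which brought the share within 10 kb to 57.1% (55.7 to 58.5). The fullest of the 12 bins was that from 20 to 50 kb, with 895 summits (18.6%). The bins are of unequal width and wider at larger distances, so their counts are not densities. Only 168 ZEB1 summits (3.50%, 2.996 to 4.06) were more than 100 kb from any CTCF summit, and the most remote was 693 kb away. On the CTCF side 1365 of 31753 summits (4.30%, 4.08 to 4.53) had a ZEB1 summit within 1 kb, 18751 (59.1%) had none within 100 kb and 3037 (9.56%) had none within 1 Mb.

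**Figure D1:**
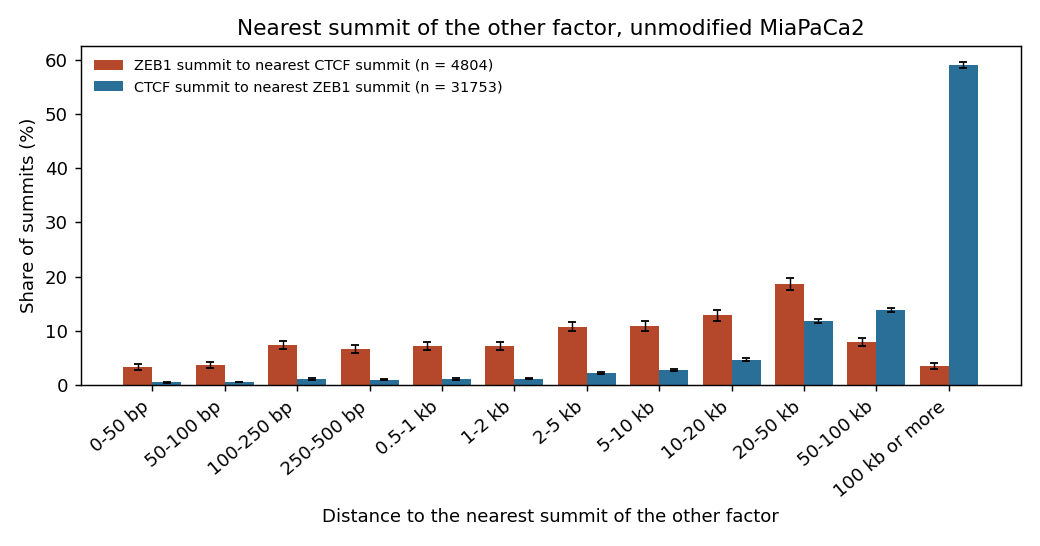
Share of summits (%) in each bin of distance to the nearest summit of the other factor, for ZEB1 summits (red, n = 4804) and CTCF summits (blue, n = 31753). Bars give the share and whiskers its exact 95% interval over summits, and the bins are of unequal width. ZEB1 summits spread over all bins with 3.50% at 100 kb or more, where 59.1% of CTCF summits fall.

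A nearest distance depends on how dense the other list is, so the number of CTCF summits per kb was also counted at growing distance on both sides of every ZEB1 summit and divided by the number per kb from 50 to 100 kb away. This flank shares the large-scale density of the same region. CTCF summits were gathered close to ZEB1 summits. Their density was 0.329 per kb within 50 bp and 0.368 per kb from 50 to 100 bp, against 0.0232 per kb in the flank, which is 14.2 and 15.9 times the flank. It then fell to 10.7 times from 100 to 250 bp, 6.04 times from 250 to 500 bp, 4.08 times from 500 to 1000 bp and 2.31 times from 1 to 2 kb. From 5 to 10 kb it was 1.19 times and from 10 to 20 kb 1.08 times the flank. Over the whole first kb the ratio was 6.66 (6.30 to 7.03). Counting 1 ZEB1 peak per group of peaks at most 10 kb apart gave 6.89, and leaving out the outer 5 Mb of the chromosomes gave 7.30.

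The gathering of CTCF summits recurred with the other ZEB1 lists. The ratio over the first kb was 6.69 (6.07 to 7.36) for the WT clone, 7.43 (6.85 to 8.04) for the delta-Repeat clone and 4.84 (4.61 to 5.08) for RKO, each with the CTCF list of unmodified MiaPaCa2. The intervals of the 3 MiaPaCa2 lists overlap, and that of RKO lies below all of them. The RKO cells are another line, their lot of the ZEB1 antibody was another one, and RKO CTCF is not analysed here. The RKO list is also longer, with 7193 peaks against 4804 in unmodified MiaPaCa2. These differences cannot be told apart. Both clones shared 1 lot, which differed from that of the unmodified cells. Within unmodified MiaPaCa2 the ratio exceeded 1 on 23 of 23 chromosomes, from 3.96 (3.14 to 4.94) on chromosome 19 to 11.3 (6.84 to 17.9) on chromosome X. The share of ZEB1 summits with a CTCF summit within 1 kb ran from 19.0% (9.87 to 31.4) on chromosome 21 to 36.5% (30.7 to 42.6) on chromosome 5.

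**Figure D2:**
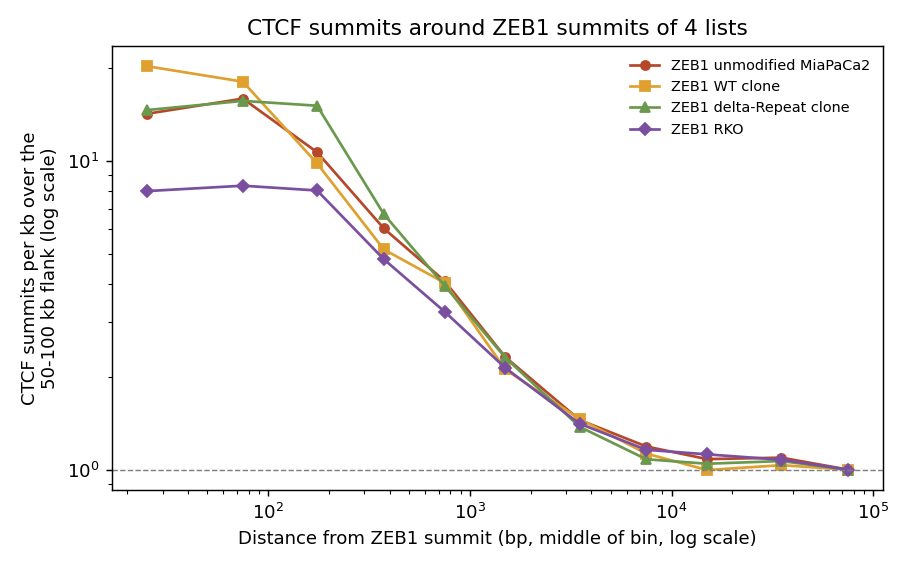
CTCF summits per kb at growing distance from ZEB1 summits (x axis, bp, log scale), divided by the density from 50 to 100 kb away (y axis, log scale), for 4 ZEB1 lists against the CTCF list of unmodified MiaPaCa2. Each point is 1 distance bin of 1 list. All 4 curves fall to near 1 beyond 5 kb, and the RKO curve starts lowest.

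The same nearness can be read from the place of ZEB1 within the intervals between CTCF summits, which is not a separate observation, since the ends of an interval are CTCF summits. Neighbouring CTCF summits were a median of 35.9 kb apart, but long intervals take up more of the sequence, and the median weighted by length was 241 kb. ZEB1 summits lay in CTCF intervals with a median length of 61.9 kb (59.5 to 63.9, n = 4793), below the value weighted by length. Among the 3873 ZEB1 summits in intervals of 20 kb or more, 1524 (39.3%, 37.8 to 40.9) lay in the outer 10% of the interval at either end, where an even spread would put 20%. The shares were 39.8% (37.1 to 42.7) for the WT clone, 40.4% (38.1 to 42.8) for the delta-Repeat clone and 34.2% (32.9 to 35.4) for RKO.

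The strength of ZEB1 peaks varied little with their distance from CTCF. Strength is the fold enrichment at the summit, as the authors' peak caller wrote it, and it is compared only within a list. The median ZEB1 fold was 6.81 for the 339 peaks within 100 bp of a CTCF summit, 6.44 for 1018 from there to 1 kb, 6.47 for 1386 from there to 10 kb, 6.66 for 1893 from there to 100 kb and 6.76 for the 168 beyond. Quartiles of all 5 classes lay between 5.35 and 9.22. With the ZEB1 list divided into 4 fold classes of 1201 peaks, the share with a CTCF summit within 1 kb was 27.5% (24.97 to 30.1) in the weakest, 29.3% and 29.4% in the middle classes and 26.8% (24.3 to 29.4) in the strongest.

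CTCF peaks showed a different pattern, with ZEB1 beside both the weakest and the strongest. A ZEB1 summit lay within 1 kb of 4.61% (4.16 to 5.09) of the weakest CTCF fold class, 3.28% (2.89 to 3.69) of the second, 3.39% (3.002 to 3.81) of the third and 5.92% (5.41 to 6.46) of the strongest. The median CTCF fold was 12.03 in the 339 peaks within 100 bp of a ZEB1 summit and 10.5 in the 18751 peaks over 100 kb away, with quartiles of 7.13 and 18.1 in the first and 7.17 and 14.8 in the second. Median widths in these classes were 433 and 379 bp.

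The 10 strongest ZEB1 peaks lay at very different distances from CTCF. The strongest (chr16:90097285-90099860, fold 115) was 5.79 kb from the nearest CTCF summit, which belonged to a weak peak of fold 3.73. The second (chr1:1058354-1060112, fold 105) was 1.65 kb from a CTCF peak of fold 19.8. The third, seventh and eighth had a CTCF summit within 1 kb, at 276 bp on chromosome 1 (start 89990490), 430 bp on chromosome 5 (start 138088118) and 345 bp on chromosome 12 (start 32552322). The fourth (chr5:68787961-68789356, fold 64.1) was 77.9 kb from CTCF, and the ninth (chr2:242511466-242512326, fold 57.1) was 22.9 kb from it. Numbers 6 and 10 are neighbours on chromosome 19 (starts 11320459 and 11319349, folds 61.3 and 56.6) and share 1 nearest CTCF summit, 6.88 and 5.42 kb away. Among the 100 strongest ZEB1 peaks 22 had a CTCF summit within 1 kb (22%, 14.3 to 31.4), and the interval includes the 28.2% of the whole list.

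Where both summits fell within 50 bp, at 161 places, the 2 peaks could be of very unequal strength. The strongest such ZEB1 peak (chr16:67279945-67281435, fold 35.2) had a CTCF summit 12 bp away with a fold of 4.66, and the next (chr15:74666657-74667685, fold 33.2) one 9 bp away with a fold of 5.35. At the third (chr11:118800284-118801334, fold 32.6) the CTCF fold was 16.6 at 41 bp, and at the fourth (chr12:48137622-48138442, fold 30.2) it was 14.3 at 26 bp. At the fifth (chr6:136871467-136872356, ZEB1 fold 25.9) the CTCF fold was 35.0 at 32 bp. The folds of the 2 lists are not compared with each other. Each of these 5 ZEB1 peaks overlapped a peak in all 3 other ZEB1 lists, as did 98 of the 100 ZEB1 peaks of highest fold. Over all ZEB1 peaks this share was 19.0% (17.9 to 20.2), and over the 161 within 50 bp of CTCF 26.1% (19.5 to 33.6). In the first 2, CTCF stood below the median fold of its list (10.8).

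At the other extreme were strong ZEB1 peaks in stretches without CTCF. The 5 strongest with no CTCF summit within 100 kb lay on chromosome 13 (114319193 to 114321438, fold 62.4, CTCF 103 kb away), chromosome 2 (8640611 to 8641637, fold 46.5, 127 kb), chromosome 7 (98176898 to 98178488, fold 37.3, 115 kb), chromosome 19 (38084886 to 38086106, fold 34.7, 125 kb) and chromosome 10 (1613517 to 1614782, fold 31.3, 144 kb). All 5 overlapped a peak in the RKO, WT clone and delta-Repeat clone lists, as most strong peaks did. Among all 168 ZEB1 peaks this far from CTCF the share was 19.05% (13.4 to 25.8), near that of the whole list. The first of them is only just past the limit of 100 kb.

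The strongest CTCF peaks were also spread over all distances. The first (chr17:43212598-43213078, fold 87.4) had a ZEB1 summit 289 bp away with a fold of 5.47. The second (chr2:220406175-220407104, fold 77.1) had one 23 bp away with a fold of 13.8, and this place carried a ZEB1 peak in all 4 ZEB1 lists. The other 8 were between 13.9 kb and 2.90 Mb from ZEB1, and 5 of the 10 were over 100 kb away. Of the 100 strongest CTCF peaks 11 (11.0%, 5.62 to 18.8) had a ZEB1 summit within 1 kb, where the whole list had 4.30%.

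The strongest CTCF peaks with no ZEB1 summit within 1 Mb were on chromosome X (10087257 to 10088246, fold 76.2, ZEB1 2.90 Mb away), chromosome 12 (82752133 to 82752851, fold 49.9, 2.67 Mb), chromosome 2 (135208327 to 135208928, fold 45.6, 1.08 Mb), chromosome X (64815166 to 64815752, fold 45.0, 2.25 Mb) and chromosome 6 (73121664 to 73122358, fold 44.4, 1.002 Mb). None of the 5 overlapped a peak of the other 3 ZEB1 lists, which also held for 95.98% of all CTCF peaks.

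Each factor was then described by the gaps between its own neighbouring summits. ZEB1 gaps had a median of 146 kb (136 to 157, n = 4781) and CTCF gaps one of 35.9 kb (35.1 to 36.7, n = 31730). Because the lists differ in length, the shortened CTCF list was set beside the ZEB1 list. Their median gap was 149 kb (140 to 157), close to that of ZEB1, yet the shape differed at both ends. Gaps under 1 kb made up 358 of 4781 in ZEB1 (7.49%, 6.76 to 8.27) and 19 of 4781 in the shortened CTCF list (0.40%, 0.24 to 0.62). Gaps under 10 kb made up 18.5% (17.4 to 19.7) and 7.59% (6.86 to 8.38), and gaps over 1 Mb 15.1% (14.1 to 16.1) and 12.8% (11.9 to 13.8).

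ZEB1 summits were thus packed at short range. At 250 to 500 bp from a ZEB1 summit, other ZEB1 summits were 17.9 times as dense as from 50 to 100 kb away, at 500 to 1000 bp 16.9 times and at 1 to 2 kb 8.12 times. Around CTCF summits of the full list, other CTCF summits were 0.86, 1.90 and 1.76 times as dense in the same 3 bins. In the shortened CTCF list the values were 0, 1.47 and 2.16 times. A caller can split 1 broad site into several peaks, and joining peaks less than 1 kb apart lowered the ZEB1 share of gaps under 10 kb to 9.09% (8.25 to 9.99), against 6.20% (5.50 to 6.96) in as many joined CTCF peaks. When only peaks with a fold of 5 or more and a −log10 q of 10 or more were kept, 2013 ZEB1 and 25545 CTCF peaks passed. The share was 9.60% (8.34 to 10.98) for ZEB1 and 4.02% (3.20 to 4.98) for CTCF after a further cut to 2013 peaks. Without that cut it was 18.4% (17.9 to 18.8) for CTCF. ZEB1 was above CTCF in both comparisons of equal length, and joining brought the 2 shares closer. Against the full CTCF list, with 21.98% of gaps under 10 kb, ZEB1 was lower. Equal length does not match strength, since the cut CTCF lists keep only their peaks of highest −log10 q. The ZEB1 list cut to its upper 50% by −log10 q itself had 10.9% (9.70 to 12.3) of gaps under 10 kb. The part of this selection in the differences was not tested.

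**Figure D3:**
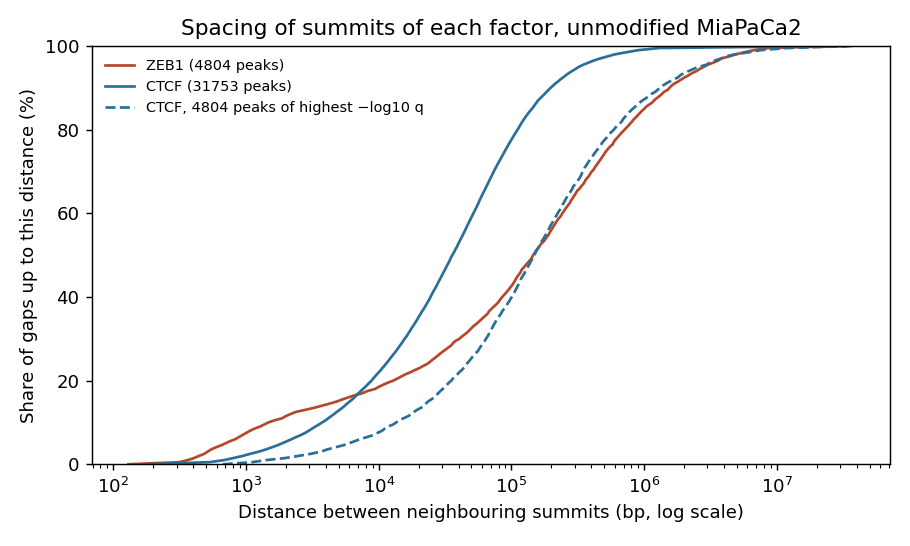
Cumulative share of gaps between neighbouring summits (y axis, %) up to each distance (x axis, bp, log scale) for ZEB1 (red), the full CTCF list (blue) and the 4804 CTCF peaks of highest −log10 q (dashed). ZEB1 and the shortened CTCF list meet near their medians of 146 and 149 kb, and ZEB1 runs above it at short distances.

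Runs of at least 3 summits, each at most 10 kb from the next, numbered 141 for ZEB1 and held 498 of its 4804 summits (10.4%, 9.52 to 11.3). CTCF had 1276 such runs with 4323 summits (13.6%, 13.2 to 14.0), and its list shortened to 4804 peaks had 30 runs with 94 summits (1.96%, 1.58 to 2.39). With peaks joined, ZEB1 had 52 runs and as many CTCF peaks had 19. Of the 141 ZEB1 runs, 102 held at least 1 RKO summit (72.3%, 64.2 to 79.5), 92 a WT clone summit (65.2%) and 100 a delta-Repeat clone summit (70.9%). Of the 3248 single ZEB1 peaks, 53.4%, 29.5% and 38.3% held a summit of these lists, and of the 529 pairs 71.6%, 45.7% and 54.1%. Runs cover more sequence than single peaks, and the part of that in these shares was not tested.

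The largest ZEB1 run lay on chromosome 11 from 118777759 to 118801334, with 8 ZEB1 summits over 22.96 kb and folds up to 32.6. It also held 4 CTCF summits, and 4 RKO, 2 WT clone and 4 delta-Repeat clone ZEB1 summits. The next, on chromosome 17 from 39674076 to 39686386, had 7 ZEB1 summits over 11.9 kb and 1 CTCF summit. It held 2 WT clone and 3 delta-Repeat clone summits and none of RKO. A run of 7 on chromosome 1 (995218 to 1015685) was as dense in RKO, with 7 summits there. A run of 7 on chromosome 3 (189006617 to 189034604) had neither a CTCF nor an RKO summit, and 2 in each clone. The fifth, with 6 summits on chromosome 1 (16469618 to 16481789), held no CTCF summit and 5 of RKO. CTCF was thus within 3 of these 5 runs.

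The largest CTCF run, on chromosome 2 from 220359990 to 220407104, held 8 CTCF summits over 46.3 kb and 1 ZEB1 summit, at the strong shared place named above. The other 4 held 7 CTCF summits each. They lay on chromosome 5 (148809822 to 148829240, no ZEB1 summit), chromosome 2 (232535774 to 232557833, 1 ZEB1 summit), chromosome 1 (19965735 to 19988603, 1) and chromosome 10 (102800935 to 102827981, 4). The run on chromosome 10 was the only one of the 5 with more than 1 ZEB1 summit.

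Runs of one factor met the other more often than single peaks did. A CTCF summit lay inside or within 1 kb of 30.3% (28.7 to 31.9) of 3248 single ZEB1 peaks, 41.6% (37.4 to 45.9) of 529 pairs and 56.7% (48.1 to 65.0) of the 141 runs of 3 or more. A ZEB1 summit lay likewise at 3.45% (3.20 to 3.71) of 19574 single CTCF peaks, 9.83% (8.91 to 10.8) of 3928 pairs and 20.8% (18.6 to 23.2) of 1276 runs. Runs cover more sequence, with a median span of 5.85 kb for ZEB1 and 9.96 kb for CTCF, and here too the part of span was not tested. The CTCF density between neighbouring ZEB1 summits also fell as the gap grew. All of a short gap is close to ZEB1, but the fall went on among gaps over 10 kb, and its cause was not tested. There were 168 CTCF summits per Mb in gaps under 1 kb (36 summits in 358 gaps), 99.7 in gaps from 1 to 10 kb, 33.9 from 10 to 100 kb, 19.3 from 100 kb to 1 Mb and 7.19 in gaps over 1 Mb.

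Over chromosomes, the peak densities of both factors rose and fell together. The part of copy number and gene density in this was not tested. ZEB1 had between 0.44 peaks per Mb on chromosome X and 4.74 on chromosome 19, a range of 10.8 times, and CTCF between 5.58 on chromosome 13 and 23.7 on chromosome 19, a range of 4.24 times. Across the 23 chromosomes the densities were correlated (Pearson r = 0.97, Spearman rho = 0.94, a description across chromosomes of the same 2 libraries). Chromosome lengths were set to the last peak end found in any of the 5 lists, counted from the first base. On chromosome 13 the first 1 Mb window with a peak of either factor started at 19 Mb, so a long empty stretch counted as length. Such stretches also open chromosomes 14, 15, 21 and 22. They lower the densities of both factors there. The lowest CTCF density, the CTCF range and the correlations were not recomputed without them.

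The balance of both factors varied less. ZEB1 made up 13.1% (12.8 to 13.5) of all peaks of both lists. Its share was highest on chromosome 19 (280 ZEB1 and 1399 CTCF peaks, 16.7%, 14.9 to 18.5), chromosome 20 (179 and 976, 15.5%, 13.5 to 17.7) and chromosome 17 (288 and 1658, 14.8%, 13.3 to 16.5). It was lowest on chromosome X (68 and 972, 6.54%, 5.11 to 8.22), chromosome 15 (99 and 973, 9.24%, 7.57 to 11.1) and chromosome 4 (144 and 1286, 10.1%, 8.56 to 11.7). In all, the interval lay above the share of the whole on 4 chromosomes and below it on 5. Chromosome X was also the lowest with the ZEB1 lists of RKO (6.09%, against 18.5% over all chromosomes), the WT clone (2.21%, against 4.55%) and the delta-Repeat clone (3.57%, against 6.37%), all set against the same CTCF list. The low share on X did not hold against the strongest CTCF peaks. When the CTCF list was shortened to 4804 peaks, both factors had equal shares over all chromosomes by construction. ZEB1 then made up 49.3% (40.7 to 57.9) on chromosome X and 46.3% (42.3 to 50.3) on chromosome 19, with intervals that overlap. When the fold and q limits above were applied to both lists, the shares were 3.07% on X and 10.2% on 19.

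**Figure D4:**
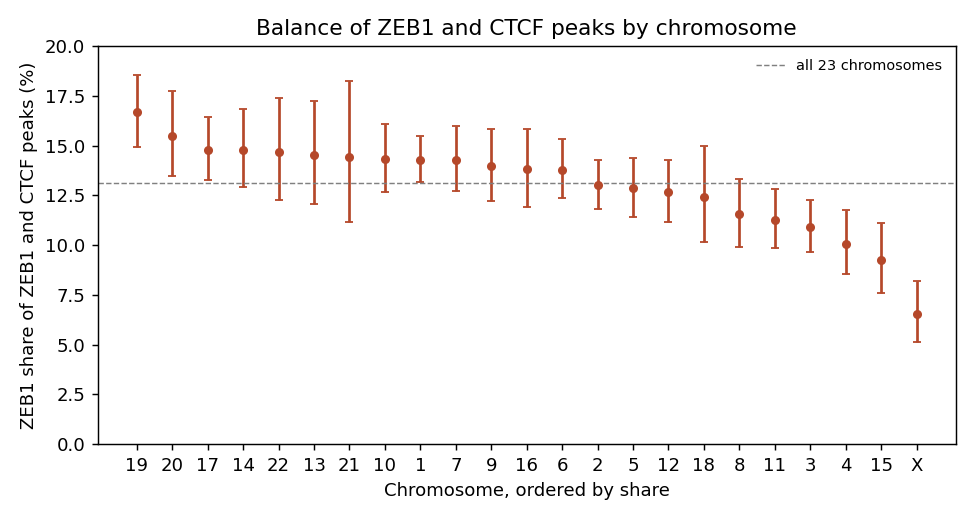
ZEB1 share of all ZEB1 and CTCF peaks (y axis, %) on each chromosome (x axis, ordered by share). Points give the share and whiskers its exact 95% interval over peaks, and the dashed line is the share over all 23 chromosomes, 13.1%. Chromosome 19 is highest at 16.7% and chromosome X lowest at 6.54%.

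At the scale of 1 Mb windows, ZEB1 was gathered in fewer windows than CTCF, but not more than an equal number of the strongest CTCF peaks. Of the 2688 windows that held a peak of either list, 1146 (42.6%, 40.8 to 44.5) had no ZEB1 peak and 4 had no CTCF peak. The densest 269 windows, 10% of all, held 46.1% of ZEB1 peaks, 26.8% of CTCF peaks, and 46.3% of the CTCF list shortened to 4804 peaks, each by its own order. CTCF grew with ZEB1. The median number of CTCF peaks was 5 (quartiles 2 and 9) in the windows without ZEB1, 10 in the 535 with 1 ZEB1 peak, 14 in the 574 with 2 or 3, 19 in the 275 with 4 to 6 and 28 (20 and 35) in the 158 with 7 or more. Across the windows, Pearson r was 0.65 and Spearman rho 0.69 (a description over 2688 windows of the same 2 libraries). With the RKO list they were 0.65 and 0.69, with the WT clone 0.48 and 0.48 and with the delta-Repeat clone 0.53 and 0.56. These 3 lists differ in length, with 7193, 1515 and 2160 peaks, and the part of that in the correlations was not tested. Nor was the part of copy number and gene density, which neighbouring windows share.

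A window was called rich in a factor when its count reached the 95th percentile, 7 peaks for ZEB1 (158 windows, 5.88% of all) and 30 for CTCF (141 windows, 5.25%). It was called poor in CTCF at or below the median of 10, and poor in ZEB1 with no peak. Windows rich in one factor and poor in the other were few at these limits, but their number depended on the lists and the window size. Against 4 rich in ZEB1 and 3 rich in CTCF, there were 18 and 17 when the fold and q limits above were applied to both lists, 21 and 0 with the shortened CTCF list, 21 and 19 in windows of 500 kb and 1 and 0 in windows of 2 Mb. For each alternative the percentiles and the median were taken anew from its own windows. The number of windows differs too, so these counts are not on 1 scale. Rich in both were 73 windows (2.72% of all), which is 46.2% (38.2 to 54.3) of the windows rich in ZEB1 and 51.8% (43.2 to 60.3) of those rich in CTCF. Rich in ZEB1 and poor in CTCF were 4 windows (0.149%), so that 2.53% (0.69 to 6.35) of windows rich in ZEB1 were poor in CTCF, where 52.2% of all windows were. Rich in CTCF and without ZEB1 were 3 windows (0.112%), so that 2.13% (0.44 to 6.09) of windows rich in CTCF had no ZEB1, where 42.6% of all windows had none.

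The 4 windows rich in ZEB1 and poor in CTCF lay on chromosomes 5 and 10. The window on chromosome 5 from 57 to 58 Mb held 10 ZEB1 and 9 CTCF peaks. Its ZEB1 peaks were weak, with folds from 3.48 to 7.89, and their median distance from CTCF was 196 kb. It held 3 peaks of the WT clone, 5 of the delta-Repeat clone and 0 of RKO. On chromosome 10 the window from 3 to 4 Mb held 9 ZEB1 and 10 CTCF peaks, with ZEB1 folds up to 22.9 and 7 peaks of RKO, 5 of the WT clone and 2 of the other clone. The window from 17 to 18 Mb held 7 and 9, with ZEB1 folds up to 6.55, and 2 peaks of RKO, 0 of the WT clone and 3 of the other clone. In it the ZEB1 peaks ended at 17241319, before the first CTCF peak at 17269198, so the 2 factors occupied separate parts of the window. The window from 135 to 136 Mb is cut short by the chromosome end, with the last peak of any list ending at 135.33 Mb, so it covers less sequence than the others and its counts cannot be read as those of a whole window. It held 7 and 10, with a ZEB1 fold up to 39.3, a median distance of 4.50 kb, 2 of 7 ZEB1 summits within 1 kb of CTCF, and 11 peaks of RKO, 6 of the WT clone and 4 of the other clone.

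Windows just outside these limits were also examined, and were chosen after their values were seen. The 4 windows with 6 ZEB1 peaks and at most 10 CTCF peaks lay on chromosomes 1, 2, 4 and 6, and the one on chromosome 2 (157 to 158 Mb) had only 2 CTCF peaks. More ZEB1 than CTCF peaks were found in 4 windows rich in ZEB1. The extreme was chromosome 3 from 189 to 190 Mb, with 23 ZEB1 and 13 CTCF peaks, which contains a run of 7 named above. Its ZEB1 folds ran from 4.03 to 11.9, it held 6 WT clone and 5 delta-Repeat clone peaks, and RKO had none. On chromosome 13 from 114 to 115 Mb there were 14 ZEB1 and 12 CTCF peaks, with 18 peaks of RKO, 9 of the WT clone and 10 of the other clone. A window on chromosome 8 (22 and 17) and the one on chromosome 5 named above (10 and 9) were the other two. ZEB1 in excess of CTCF was thus found both where RKO had many peaks and where it had none.

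The 3 windows rich in CTCF without ZEB1 were chromosome 1 from 41 to 42 Mb (35 CTCF peaks), chromosome 14 from 22 to 23 Mb (35) and chromosome 1 from 152 to 153 Mb (30). Their median CTCF folds were 8.89, 12.7 and 11.7. Neither clone had a ZEB1 peak in any of them, while RKO had 4, 0 and 1. Such absence is common, since 98.7% of the 1146 windows without ZEB1 had no WT clone peak, 96.6% no delta-Repeat clone peak and 76.7% no RKO peak. The window on chromosome 14 was therefore without a ZEB1 peak in all 4 lists. Just outside were 4 windows with 1 ZEB1 peak and 30 to 36 CTCF peaks, on chromosomes 7, 7, 19 and 20.

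The windows richest in ZEB1 among those rich in both were 2 neighbours near the end of chromosome 9, from 139 to 140 Mb (23 ZEB1 and 57 CTCF peaks) and from 140 to 141 Mb (23 and 35), and windows on chromosome 14 from 105 to 106 Mb (23 and 46), chromosome 20 from 62 to 63 Mb (22 and 32), chromosome 12 from 6 to 7 Mb (20 and 45) and, with the same ZEB1 count, chromosome 17 from 79 to 80 Mb (20 and 42). In the window on chromosome 12, 10 of the 20 ZEB1 summits had a CTCF summit within 1 kb, and in that on chromosome 14, 3 of 23 did. All 73 windows rich in both held RKO peaks, 68 held WT clone peaks and 69 delta-Repeat clone peaks. Of the 85 windows rich in ZEB1 but not in CTCF, 81 (95.3%), 77 (90.6%) and 81 (95.3%) did. Among all 2688 windows, 60.4% held RKO peaks, 31.03% WT clone peaks and 41.8% delta-Repeat clone peaks. The shares in windows rich in ZEB1 were thus above those of all windows, whether or not CTCF was rich too.

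**Figure D5:**
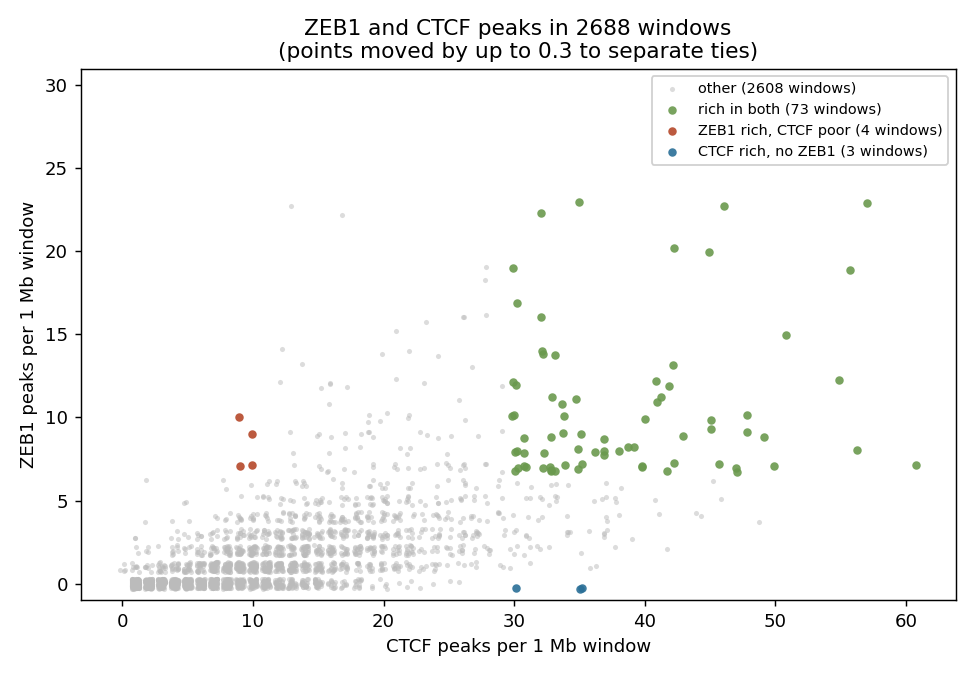
ZEB1 peaks (y axis) against CTCF peaks (x axis) in each of 2688 windows of 1 Mb in unmodified MiaPaCa2, with points moved by up to 0.3 to separate ties. Colours mark the 73 windows rich in both, the 4 rich in ZEB1 and poor in CTCF and the 3 rich in CTCF without ZEB1. The grey point at 23 ZEB1 and 13 CTCF peaks is the window on chromosome 3.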

How the data were processed

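Per the submitters' processing notes, the tools were Bowtie2 2.2.6, SAMtools and MACS2 2.1.0.20150731, with the builds hg19 and GRCh37. Not given in the sources used here were each list's control input and any pooling. The fold enrichment deposited for each peak is a linear ratio over the background of the authors' caller. The authors deposited p and q on a −log10 scale, and the deposited score (a multiple of the −log10 q) was not used. Coordinates are those of the deposited lists, counted from 1.

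Distances, gaps, runs and windows were computed with Python 3.11.15, numpy 2.4.6, pandas 2.3.3 and scipy 1.17.1, and plots were drawn with matplotlib 3.10.9. The code was tested on simulated data. Shares carry exact Clopper-Pearson 95% intervals, medians exact order-statistic intervals and density ratios exact binomial ones. With 1 sample per factor no test was made. Alternatives were the stricter threshold, a CTCF list cut to the ZEB1 length, joined peaks, peak centres, chromosome ends left out, and other windows.

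Named peaks were the 10 of highest fold in each list and the 5 strongest with summits within 50 bp, with ZEB1 over 100 kb from CTCF, and with CTCF over 1 Mb from ZEB1. Named runs, windows and chromosomes were the 5 of most summits, up to 5 of most peaks per class, and the 3 highest and 3 lowest. The comparison, its lists and its rules were chosen with earlier results of these data known. Peaks are named by position alone and no sequence is printed, because annotation and genome of hg19 were not used.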

Additional observations from a re-analysis of the deposited data

How the results depend on the processing

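No paired analysis was possible because each factor has 1 sample. Values that left the 95% interval of the reported value, or counts that moved by over 1.5 times, follow. With the stricter threshold in both lists, 23.6% of ZEB1 summits had a CTCF summit within 1 kb, the median distance was 11.0 kb, 1.92% of CTCF summits had a ZEB1 summit within 1 kb, gaps under 10 kb were 9.60% for ZEB1 and 18.4% for CTCF, the ZEB1 share was 10.2% on chromosome 19 and 3.07% on chromosome X, and windows rich in one factor and poor in the other numbered 18 for ZEB1 and 17 for CTCF. With the CTCF list cut to the ZEB1 length, the same values were 7.33%, 77.4 kb, 6.87%, 7.59% for CTCF gaps, 46.3% and 49.3%, and 21 and 0 windows (among those that then held a peak of either list), and the density ratio over the first kb was 7.39. A shorter CTCF list lowers the first and raises the second of these by construction, and equal lengths give ZEB1 50% of all peaks. The stricter threshold kept 2013 of 4804 ZEB1 and 25545 of 31754 CTCF peaks, which by construction lowers the ZEB1 share over all chromosomes. With neighbouring peaks joined, 3.86% of CTCF summits had ZEB1 within 1 kb, the density ratio was 6.30, and gaps under 10 kb were 9.09% for ZEB1 and 18.9% for CTCF, since joining removes the shortest gaps. Without the outer 5 Mb the values were 4.02% of CTCF summits, a ratio of 7.30, and gaps of 17.1% and 21.4%. Windows rich in ZEB1 and poor in CTCF numbered 21 at 500 kb and 1 at 2 Mb, and windows rich in CTCF without ZEB1 numbered 19 and 0, and 1 when windows were shifted by 500 kb. All counts of windows here used limits taken anew from the windows of the alternative. Where no construction is named, the part of list length in the change was not tested, nor was any other cause. Of the alternatives added after seeing the data, 1 ZEB1 peak per run gave a median distance of 7.26 kb and the ZEB1 list cut to its upper 50% by −log10 q had 10.9% of gaps under 10 kb. For the other 20 planned and 3 added values the change was smaller than that. The alternative on transcription starts was not run. Since read depth is unknown, an absent peak may be a missed one, and the balance of the 2 lists has no absolute meaning.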
